A study of Mus musculus with 8 samples.

Results

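The genes described here encode collagens, laminins, thrombospondins and a set of matrix glycoproteins (fibronectin, tenascins, nidogens, periostin, vitronectin and Sparc), measured in photoreceptor cells isolated from the mouse retina. They were chosen by their symbol and by measured signal. Of 67 genes on the array with such a symbol, the 44 selected on having a probe that the scanner software marked as well above background on 4 or more of 8 arrays were kept, and each gene was read from its probe with the highest mean signal. The 44 genes stood among 14848 genes tested on the same arrays. Both marks and signals were measured on these samples, so that the presence of a gene among the 44 is a description and not a result.

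On single-color Agilent SurePrint G3 mouse arrays, 4 samples carried the label Lpcat1 heterozygous (HZ) and 4 the label Lpcat1 KO, all from C57BL/6 mice at postnatal day 8. Lpcat1 encodes an acyltransferase that makes phosphatidylcholine with saturated fatty acids, and the mice carried its deletion in all tissues, on a C57BL6/N background crossed to C57BL6/J so that no mouse was homozygous for rd8. Retinas were dissociated with trypsin, and cells bearing CD73, a surface protein of young photoreceptors, were collected with an antibody and magnetic beads. The labels do not say whether replicates came from separate animals, and p-values then measure the spread between these samples, which may be technical.

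The extracellular matrix holds tissue layers together and is built from proteins that assemble outside the cell. Collagens form fibrils, networks or filaments from trimers of chains, laminins and type IV collagen form basement membranes that nidogens link, and thrombospondins and the other glycoproteins bind these polymers to each other and to cell surface receptors. In the eye such layers lie under the pigment epithelium (Bruch's membrane), at the inner face of the retina, around vessels, in the lens capsule, in the vitreous and in the cornea. The matrix around photoreceptor outer segments is itself rich in proteoglycans.

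On each array 59.5% to 64.6% of probes were well above background, and r between arrays lay between 0.974 and 0.992. The KO-labelled arrays lay in 1 row of the slide and the HZ-labelled ones in the other, so that the labels cannot be told apart from the row. The single Lpcat1 probe did not separate the labels, with a difference of -0.037 on the log2 scale (SE 0.11, limma adjusted p = 0.931), and groups are therefore given as labelled. The scanner software marked 458 non-uniform spots on HZ replicate 4 and 2 to 25 on each of the others. All 13 rod photoreceptor markers examined were among the tested genes, and so were 12 of 12 Müller glia and astrocyte markers, 11 of 11 microglia markers, 6 of 6 bipolar cell markers and 21 of 25 markers of the retinal pigment epithelium (RPE), the pigmented layer behind the photoreceptors.

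Values are normalized log2 signals, the log2 of a spot's background-corrected intensity minus the 75th percentile of its array. Every difference is the mean of the KO-labelled arrays minus that of the HZ-labelled arrays, on the log2 scale, given with its standard error (SE). Signals of different probes are not compared with each other. In RNA from a mixture of cells, fewer cells of a type and less RNA per cell cannot be told apart.

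Type VIII collagen, thrombospondin 1, laminin beta 1, the type IX collagen chain Col9a3 and Col26a1 were lower on the KO-labelled arrays. Of the 44 genes, 6 passed the looser pair of thresholds in the study's methods (a fold over 1.5 and an adjusted p under 0.5) in the lower direction, where 1.13% of all tested genes did. They were Col8a1, Thbs1, Col8a2, Lamb1, Col9a3 and Col26a1, and each was well above background on all 8 arrays. In the higher direction 0 passed in limma, where 0.33% of all genes did. At the stricter pair (over 1.2-fold, adjusted p below 0.05) 0 of the 44 were called by limma, and the share of all genes was 0.0%. At an unadjusted p under 0.05 limma gave 8 lower (3.5% of all genes) and 1 higher (5.81% of all genes). An adjusted p under 0.5 admits many false calls, and the smallest adjusted p among the 44 was 0.334. In simulated data 41% of the calls were false, but the simulated noise was independent between arrays and probes. The real arrays deviated together, so that this share need not hold for them.

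The 6 calls depended on single arrays, and pairing kept all of them and added others. Without HZ replicate 1, HZ replicate 3, KO replicate 3 or KO replicate 4, 0 of the 44 were called, and 0 genes of the whole table were called there. Without KO replicate 2 the count was 1 (Col9a3), without HZ replicate 4 it was 2 (Col9a3 and Col26a1), without KO replicate 1 it was 5, and without HZ replicate 2 it was 8 lower and 2 higher. Over all tested genes these runs called, in the same order, 31, 87, 90 and 490 lower and 7, 74, 28 and 205 higher. With all arrays 168 genes were called lower and 49 higher. With the replicate number as a block, which pairs arrays of the same number, limma called 10 lower, all 6 among them, and 1 higher. The block also raised the calls over all tested genes, to 438 lower and 142 higher. The methods' t-test called the same 6. The sign of each of the 6 differences was kept under all 18 alternatives.

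Over the 44 genes the median difference was -0.13, with 33 negative and 11 positive, while over all tested genes the median was 0.029 and 43.2% were negative. In size, 19 of the 44 differed by less than 1.2-fold and 32 by less than 1.5-fold. Differences past 2-fold were seen for 6 genes, all lower, where 0.97% of all genes were lower by that much. Every KO-labelled array lay below every HZ-labelled array for 7 of the 44 (2.52% of all genes), and above every one for 1 of the 44 (5.48% of all genes). The plot of differences by class shows where they fell.

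**Figure D1:**
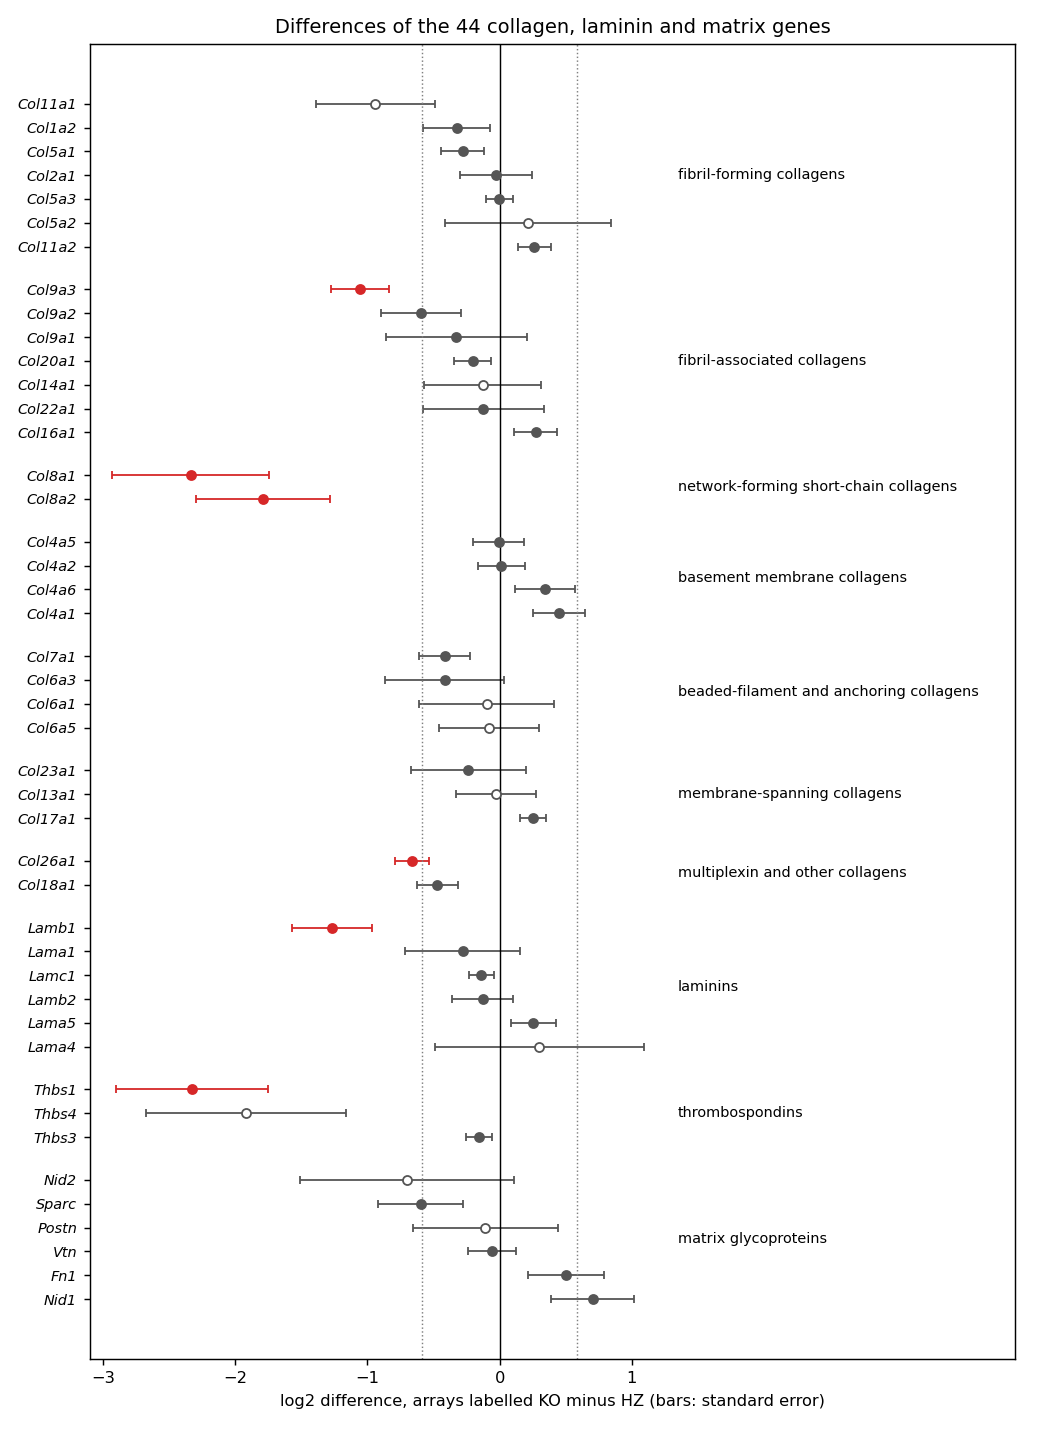
Log2 difference of each of the 44 genes (points, KO-labelled arrays minus the HZ-labelled ones, 4 against 4) with its standard error (bars), grouped by class. Red points passed a fold over 1.5 and an adjusted p under 0.5, open points were well above background on fewer than 8 arrays, and dotted lines mark a fold of 1.5. The 6 red points lie between -2.33 and -0.66, and the highest point is Nid1 at 0.71.

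The 250 bases upstream of the transcription start are shown for Col8a1, Col8a2 and Lamb1, the 3 of the 6 lower genes that the RefSeq promoter table (GRCm38.p6) lists, because these genes had the same highest and lowest arrays, as described further on. Capitals mark GGGCGG, the GC box, and CATGTG, an E-box core, each on either strand, so that the reverse complement CCGCCC is also in capitals. The windows lie at chr16:57754738-57754987 (minus strand), chr4:126286544-126286793 (plus strand) and chr12:31265043-31265292 (plus strand), and each is printed 5′ to 3′ on the strand of its gene.
Col8a1: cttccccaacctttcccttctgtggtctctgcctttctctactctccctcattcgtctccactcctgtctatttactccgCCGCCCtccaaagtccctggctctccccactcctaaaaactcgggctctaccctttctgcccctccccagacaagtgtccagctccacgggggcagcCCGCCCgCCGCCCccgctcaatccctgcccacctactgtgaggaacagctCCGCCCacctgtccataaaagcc
Col8a2: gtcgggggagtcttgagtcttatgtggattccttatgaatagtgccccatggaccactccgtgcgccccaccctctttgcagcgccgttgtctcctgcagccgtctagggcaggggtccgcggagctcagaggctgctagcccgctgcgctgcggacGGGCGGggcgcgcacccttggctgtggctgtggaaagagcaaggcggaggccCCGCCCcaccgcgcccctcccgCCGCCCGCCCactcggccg
Lamb1: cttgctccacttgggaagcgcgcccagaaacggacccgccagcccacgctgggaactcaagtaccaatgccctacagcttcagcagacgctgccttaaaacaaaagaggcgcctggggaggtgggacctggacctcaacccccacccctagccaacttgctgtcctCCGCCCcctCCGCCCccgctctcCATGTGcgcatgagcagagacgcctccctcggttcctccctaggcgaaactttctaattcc
The GC box was found 4 times upstream of Col8a1, 4 times upstream of Col8a2 and 2 times upstream of Lamb1, counting overlapping matches. It is present in 32.7% of the 32851 promoter windows of the same length. CATGTG occurred 1 time, upstream of Lamb1, and is in 12.3% of all windows. TATAAA, the core of the TATA box, was in 0 of these 3 windows and in 12.4% of all. The G and C content was 60.8% for Col8a1, 70.0% for Col8a2 and 62.0% for Lamb1. A match of these letters is a description of the window and does not show that a factor binds there.

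Col8a1 and Col8a2 encode the chains of type VIII collagen, a short-chain collagen that forms hexagonal networks and is best known from Descemet's membrane of the cornea. Col8a1 had signals of 3.21, 1.04, 2.22 and 2.29 on HZ replicates 1 to 4 and of 0.85, -0.50, 0.53 and -1.45 on KO replicates 1 to 4. The lowest HZ-labelled array lay above the highest KO-labelled array, and the spread within each label was wide. The difference was -2.33 (SE 0.59, limma adjusted p = 0.422), which is 5.04-fold. Col8a2 had signals of -0.81, -2.61, -1.80 and -2.22 on the HZ-labelled arrays and of -2.70, -3.91, -3.28 and -4.72 on the KO-labelled ones. Here too the labels did not overlap, with HZ replicate 2 and KO replicate 1 only 0.085 apart. The difference was -1.79 (SE 0.50, limma adjusted p = 0.448). Within pairs of the same replicate number, the differences of Col8a1 lay between -3.74 and -1.53 and those of Col8a2 between -2.50 and -1.30. With normexp background correction the differences were -1.99 and -1.22. The remaining gene of this class, Col10a1 of growth plate cartilage, was well above background on 0 arrays.

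Thrombospondins are secreted calcium-binding glycoproteins. Thbs1, an inhibitor of vessel growth that also activates latent TGF-beta, had signals of 0.14, -1.81, -0.52 and -0.55 on the HZ-labelled arrays and of -2.04, -3.19, -2.42 and -4.40 on the KO-labelled ones. Every KO-labelled array was below the HZ-labelled arrays, and the difference was -2.33 (SE 0.57, limma adjusted p = 0.410). A second Thbs1 probe, dimmer and well above background on 1 KO-labelled array, differed by -2.58 (SE 0.65). Thbs4, which forms pentamers, had signals of -1.08, -3.47, -2.23 and -2.31 on the HZ-labelled arrays and of -2.86, -4.60, -3.25 and -6.07 on the KO-labelled ones. HZ replicate 2 lay below KO replicates 1 and 3, so that the labels overlapped. The Thbs4 difference of -1.92 (SE 0.76, limma adjusted p = 0.585) did not pass the thresholds, and the probe was well above background on 3 of the KO-labelled arrays. It passed with the replicate number as a block (adjusted p = 0.36), with normexp background correction, with trend and robust eBayes and without HZ replicate 2. Thbs3, the other pentameric form measured, differed by -0.15 (SE 0.098), and Thbs2 was well above background on 0 arrays.

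**Figure D2:**
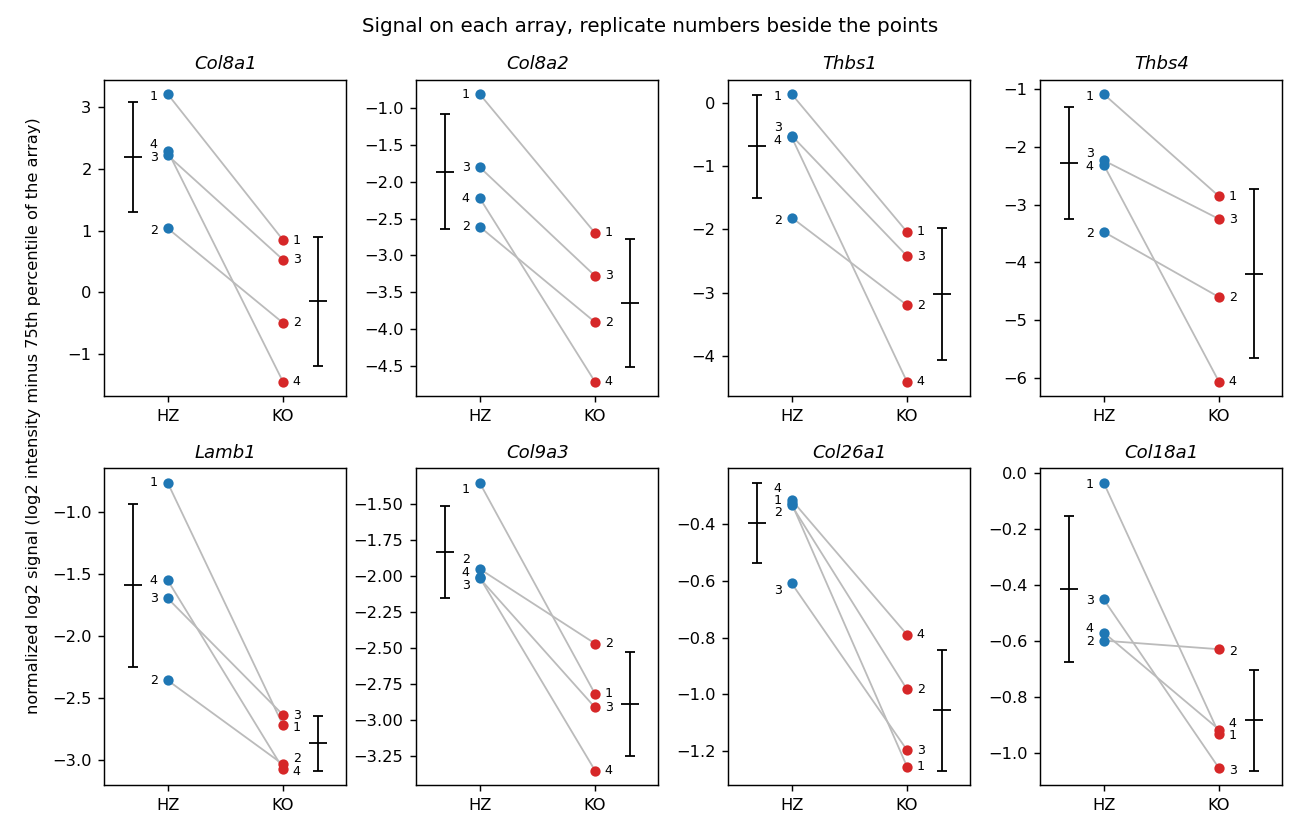
Normalized log2 signal of 8 genes on each array (points, replicate number beside each), with grey lines joining arrays of the same number and black bars giving the mean and SD of 4 arrays; each panel has its own scale. The 6 genes that passed the looser thresholds and Col18a1 do not overlap between labels, and Thbs4 does.

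Laminins are cross-shaped trimers of an alpha, a beta and a gamma chain. Lamb1, the beta 1 chain, had signals of -0.77, -2.36, -1.70 and -1.55 on the HZ-labelled arrays and of -2.72, -3.03, -2.64 and -3.07 on the KO-labelled ones. The labels did not overlap, and the KO-labelled arrays were closer together (SD 0.22, n = 4) than the HZ-labelled ones (SD 0.65, n = 4). The difference was -1.27 (SE 0.30, limma adjusted p = 0.394). The other Lamb1 probes gave -0.67 (SE 0.20) and -0.51 (SE 0.69), and the mean over the 3 probes did not pass the thresholds. The chains that Lamb1 can pair with showed smaller differences. Lamc1, the gamma 1 chain common to most laminins, differed by -0.14 (SE 0.093), with -0.10 from its second probe. Lama1, the alpha 1 chain of embryonic and inner limiting membranes, differed by -0.28 (SE 0.43), and its spread within each label (SD 0.69 and 0.71, n = 4 each) was larger than that. Lamb2, which can take the place of Lamb1, differed by -0.13 (SE 0.23) and changed sign without HZ replicate 2 and without KO replicate 1. Lama5 differed by 0.26 (SE 0.17) and by -0.034 with normexp background correction. Lama4, a chain of vessel walls, gave 0.30 (SE 0.79) with 1 HZ-labelled array dropped as an outlier spot, and its sign changed with the replicate number as a block.

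Col9a1, Col9a2 and Col9a3 encode the chains of type IX collagen, which coats type II collagen fibrils in cartilage and the vitreous. Col9a3 had signals of -1.36, -1.95, -2.02 and -2.01 on the HZ-labelled arrays and of -2.82, -2.47, -2.91 and -3.35 on the KO-labelled ones. All KO-labelled arrays were lower, and the difference was -1.05 (SE 0.22, limma adjusted p = 0.354). With normexp background correction it was -0.62. Col9a2 gave -0.60 (SE 0.30, adjusted p = 0.647) with overlapping labels, although its signal was lower on the KO-labelled array in 4 of 4 pairs, and it passed with the replicate number as a block. Col9a1 gave -0.33 (SE 0.53), ranged from -1.93 to 0.32 over the HZ-labelled arrays, and became 0.086 without HZ replicate 2. Its highest arrays were HZ replicate 2 and KO replicate 2, as for Col9a2, whereas the highest arrays of Col9a3 were HZ replicate 1 and KO replicate 2. The plot of partner chains shows this.

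Among the other fibril-associated collagens, which bind to the surface of fibrils, Col20a1 gave -0.20 (SE 0.14) and was lower in 4 of 4 pairs. Col14a1 gave -0.13 (SE 0.44), and Col22a1 gave -0.12 (SE 0.46) with 0.23 from a second probe. Col16a1 gave 0.27 (SE 0.16), and -0.60 (SE 0.55) from a second, dimmer probe. None of these passed the thresholds, and the sign of the last 3 changed under at least 1 alternative.

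Col26a1, a collagen with an EMI domain, and Col18a1, a basement membrane collagen with heparan sulphate chains and the source of endostatin, both lay lower on every KO-labelled array. Col26a1 had signals of -0.33, -0.33, -0.61 and -0.31 on the HZ-labelled arrays and of -1.26, -0.98, -1.20 and -0.79 on the KO-labelled ones. The spread within each label was the smallest of the 6 (SD 0.14 and 0.21, n = 4 each), and the difference was -0.66 (SE 0.13, limma adjusted p = 0.334). A second, dim Col26a1 probe differed by -0.16 (SE 0.40), and the mean of both probes did not pass. Col18a1 had signals of -0.034, -0.60, -0.45 and -0.57 on the HZ-labelled arrays and of -0.93, -0.63, -1.06 and -0.92 on the KO-labelled ones. HZ replicate 2 and KO replicate 2 were 0.031 apart. The Col18a1 difference of -0.47 (SE 0.15, limma adjusted p = 0.503) was 1.39-fold, short of both thresholds, and was -0.73 with normexp background correction, where it passed.

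Type IV collagen forms the network of all basement membranes, and 0 of its 4 member chains passed the thresholds. Col4a1 had signals of -2.98, -2.60, -3.41 and -3.08 on the HZ-labelled arrays and of -2.88, -2.64, -2.55 and -2.21 on the KO-labelled ones. The labels overlapped, and the difference was 0.45 (SE 0.20, limma adjusted p = 0.617), which passed as higher without HZ replicate 2. Col4a2, which joins Col4a1 in the same trimer, gave 0.012 (SE 0.18). Col4a5 gave -0.0063 (SE 0.19) and Col4a6 gave 0.34 (SE 0.23). The signs for Col4a2 and Col4a5 changed under 6 and 7 alternatives, and those for Col4a1 and Col4a6 under 0. Col4a3 and Col4a4, which join Col4a5 in specialised basement membranes, were well above background on 3 arrays each and were not members. Col4a4 was well above background on 3 HZ-labelled arrays and 0 labelled KO, and was at least 1.84-fold lower on the latter, with each KO-labelled array set to the higher of the probe's own signal and the lowest signal well above background.

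Nid1 and Nid2, the nidogens that link laminin to type IV collagen, had differences of opposite sign. Nid1 had signals of -5.27, -4.18, -4.31 and -4.78 on the HZ-labelled arrays and of -4.62, -3.56, -4.02 and -3.51 on the KO-labelled ones. It was higher on the KO-labelled array in 4 of 4 pairs, the labels overlapped, and the difference of 0.71 (SE 0.31, limma adjusted p = 0.619) passed only with the replicate number as a block (adjusted p = 0.35) and without HZ replicate 2. Nid2 gave -0.70 (SE 0.81), with HZ replicate 4 at -6.56 and the other HZ-labelled arrays between -4.23 and -2.41. Without HZ replicate 4 the Nid2 difference was -1.49, and without HZ replicate 1 it was -0.11.

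Fn1, fibronectin, which many integrins bind, had signals of 0.25, 1.01, 1.56 and 1.26 on the HZ-labelled arrays and of 1.07, 1.85, 1.52 and 1.64 on the KO-labelled ones. HZ replicate 1 was the lowest array, the labels overlapped, and the difference was 0.50 (SE 0.29, limma adjusted p = 0.682). The other Fn1 probes gave 0.36 and 0.087. With normexp background correction Fn1 differed by 0.61 and passed the looser thresholds in the higher direction. Sparc, a collagen-binding protein that loosens cell adhesion, had signals of 3.41, 3.71, 3.17 and 3.06 on the HZ-labelled arrays and of 2.78, 3.60, 2.59 and 1.97 on the KO-labelled ones. It was lower in 4 of 4 pairs, while KO replicate 2 lay above 3 HZ-labelled arrays, and the difference was -0.60 (SE 0.32, limma adjusted p = 0.669). A second Sparc probe gave -0.43, and the gene passed with the replicate number as a block (adjusted p = 0.37). Vtn, vitronectin, gave -0.056 (SE 0.18), and Postn, periostin, gave -0.11 (SE 0.55).

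**Figure D3:**
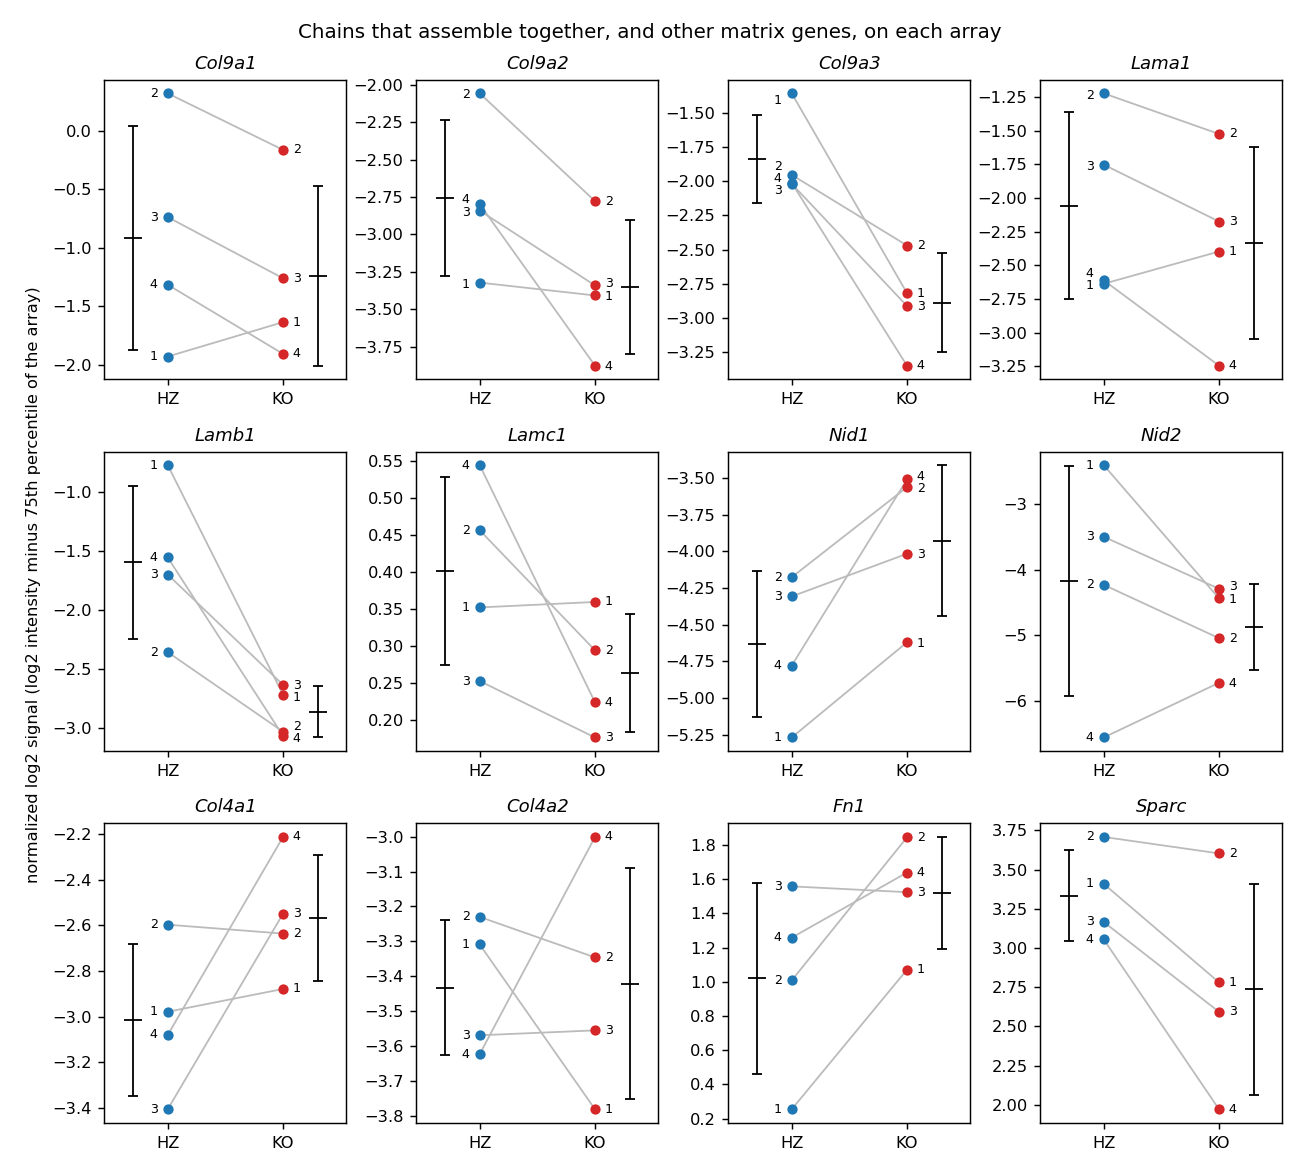
Normalized log2 signal on each array (points, replicate number beside each) of type IX collagen chains, laminin 1 chains, nidogens, the type IV chains Col4a1 and Col4a2, fibronectin and Sparc, with grey lines joining arrays of the same number, black bars giving the mean and SD, and a separate scale in each panel. Lamb1 and Col9a3 do not overlap between labels, while their partner chains do, and Nid1 is higher on the KO-labelled array in 4 of 4 pairs.

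Fibril-forming collagens, the load-bearing collagens of connective tissue, held 7 members and 0 that passed in the unpaired fit over all arrays. Col5a3 was nearly level, at 2.36 ± 0.09 on the HZ-labelled arrays and 2.36 ± 0.16 on the KO-labelled ones (SD, n = 4 each), and differed by -0.0014 (SE 0.10). Col2a1, the main fibril collagen of the vitreous, gave -0.030 (SE 0.27). Col1a2 gave -0.32 (SE 0.25) and Col5a1 gave -0.28 (SE 0.16). Col11a1, which sets fibril diameter, gave -0.94 (SE 0.45, limma adjusted p = 0.637), and was well above background on 3 HZ-labelled arrays and 1 labelled KO. It passed as lower with the replicate number as a block (adjusted p = 0.47) and without HZ replicate 2, and leaving out KO replicate 4 gave -0.46. With normexp background correction it was -0.18. Its partner Col11a2 gave 0.26 (SE 0.13), and -0.57 (SE 0.62) from a dimmer probe, and Col5a2 gave 0.21 (SE 0.63). The class had a median difference of -0.030.

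The beaded-filament and anchoring collagens gave 0 calls among 4 members. Col7a1, the collagen of anchoring fibrils, was lower in 4 of 4 pairs, with differences between -0.69 and -0.31, and a mean difference of -0.42 (SE 0.19, limma adjusted p = 0.627). Col6a3 differed by -0.42 (SE 0.45), Col6a1 by -0.098 (SE 0.51) and Col6a5 by -0.082 (SE 0.38). Of the collagens that span the cell membrane, Col17a1, known from hemidesmosomes, was the 1 gene of the 44 that was higher on every KO-labelled array. It had signals of 1.52, 1.40, 1.40 and 1.21 on the HZ-labelled arrays and of 1.58, 1.80, 1.58 and 1.57 on the KO-labelled ones, a difference of 0.25 (SE 0.099, limma adjusted p = 0.585). This was 1.19-fold, did not pass, and was -0.014 with normexp background correction. Col13a1 gave -0.027 (SE 0.30) and Col23a1 gave -0.24 (SE 0.43).

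The threshold on signal set which genes are members. Just inside it, on exactly 4 arrays, were Col11a1 and Postn. Just outside it, on 3 arrays, were Col25a1, Col4a3 and Col4a4. Of the 23 genes with a matching symbol outside it, 10 were well above background on 0 arrays, namely Col10a1, Col12a1, Col15a1, Col1a1, Col27a1, Col6a2, Col6a4, Lama3, Thbs2 and Tnc. Lama2, Lamb3, Lamc3, Col24a1 and Col28a1 were so on 1 array, and Col19a1, Col3a1, Col6a6 and Tnr on 2. For Tnr, tenascin R, and Col19a1 these were 2 HZ-labelled arrays and 0 labelled KO. Of the 44 members, 34 were well above background on all 8 arrays. A gene that passed the threshold only through the label where it is brighter had to differ, and counts over the members carry that bias.

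Markers of the RPE moved with the lower matrix genes. All 21 tested RPE markers of 25 were lower on the KO-labelled arrays, with a median difference of -1.45 and a range from -2.38 to -0.12. Of these 14 passed the looser thresholds, where 1.13% of all tested genes passed as lower. Their score, the mean of their deviations from the mean over the 8 arrays, lay between -0.034 and 1.26 on the HZ-labelled arrays and between -1.33 and -0.19 on the KO-labelled ones. Lrat, Slc45a2 and Oca2 were not tested, each RPE marker with a named probe was well above background on at least 1 array, and Mfrp was not found among the named probes. Rpe65, the retinoid isomerase of the RPE, fell by 2.38 (SE 0.54, log2), and Trpm3 fell by 1.13 (SE 0.14). The other 12 that passed were Mlana, Krt8, Clic6, Cdh3, Ttr, Gpr143, Pmel, Rdh5, Rgr, Dct, Tyr and Slc16a8, with differences between -2.26 and -0.79. Their part in the differences of the matrix genes was not tested.

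The array-by-array pattern was also alike, in a description chosen after the values were seen. Within the HZ label Col8a1, Col8a2, Thbs1, Thbs4 and Lamb1 were each highest on replicate 1 and lowest on replicate 2, and within the KO label each was lowest on replicate 4. This order was seen in 5 of the 44 genes, in 14 of 21 RPE markers and in 1.25% of all tested genes. Fap and Ogn, 2 of 7 tested fibroblast and mesenchymal markers, had it too. So did 2 of 21 matrix proteases and inhibitors, 1 of 21 proteoglycans and 1 of 31 other matrix proteins. In the remaining related and marker lists 0 genes had this order. Col9a3 and Col26a1 did not follow it. For Col26a1 KO replicate 4 was the highest KO-labelled array. A different pattern, with replicate 2 the highest array in both labels, was common over the whole table, at 23.8% of all genes. It was found in a similar share of the members, 10 of 44, and so is not particular to them. Among these were Col9a1, Col9a2, Lama1, Col5a1, Col23a1, Col2a1 and Sparc.

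**Figure D4:**
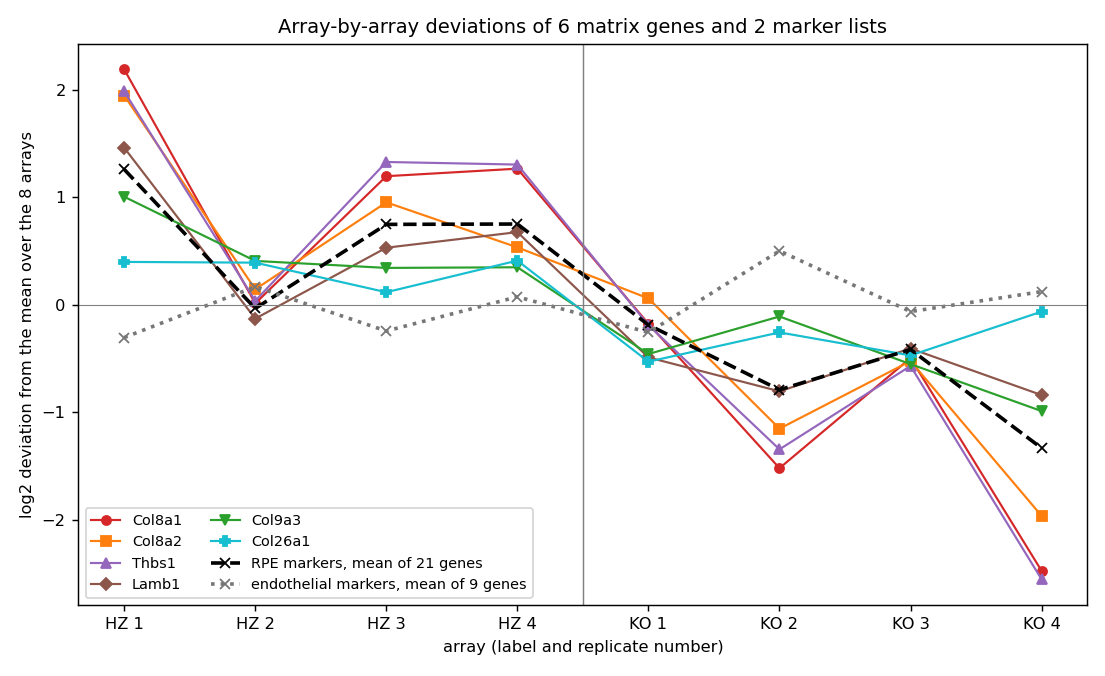
Deviation of each array from the mean over the 8 arrays, on the log2 scale, for the 6 lower matrix genes (colored lines), the mean of 21 RPE markers (dashed) and the mean of 9 endothelial markers (dotted). The RPE line runs from 1.26 on HZ replicate 1 to -1.33 on KO replicate 4. Col8a1, Col8a2, Thbs1, Lamb1 and Col9a3 also have their highest and lowest points on these arrays, and Col26a1 does not. The endothelial line stays between -0.30 and 0.50.

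Markers of other cells that make matrix were fewer on the arrays. For the calls below, 1.13% of all tested genes passed as lower and 0.33% as higher. Of 17 fibroblast and mesenchymal markers, 7 were tested, 2 of these passed as lower (Fap at -2.39 and Ogn at -1.98) and the other 5 had positive differences that did not pass, with Foxd1 at 0.97 after HZ replicate 2 was dropped as an outlier spot. The median of the 7 was 0.21. Dcn, Fbln1, Foxc1, Foxc2, Lum, Mfap5 and Twist2 were well above background on 0 arrays. The score of the 7 lay between -0.098 and 0.34 on the HZ-labelled arrays and between -0.58 and 0.052 on the KO-labelled ones. Of 15 endothelial markers 9 were tested, with a median of 0.035 and 0 calls. The largest differences in size were those of Cldn5 (1.24), Kdr (-0.80) and Flt1 (0.47), and Cdh5, Emcn, Erg, Plvap, Tek and Tie1 were well above background on 0 arrays. The 6 pericyte and smooth muscle markers tested of 11 had a median of -0.074 with 0 calls, led in size by Rgs5 (0.72), Myh11 (-0.50) and Acta2 (-0.35), and Abcc9 was well above background on 0 arrays. Of the 12 Müller glia and astrocyte markers, Car14 passed as lower (-1.28) and Gfap as higher (0.82), and Rlbp1 (-0.97) did not pass. Of 8 lens markers 4 were tested and Bfsp2 passed as lower (-0.95), while Bfsp1 (0.37) and Crygd (-0.18) did not pass. The 11 microglia markers were all higher, with a median of 0.75 and 0 calls, led by Cx3cr1 (0.93), C1qa (0.91) and Aif1 (0.90). The 13 rod markers had a median of -0.13, the 6 bipolar markers -0.40 and the 4 amacrine and horizontal cell markers tested of 8 a median of 0.12, each with 0 calls. In size the rod list was led by Cnga1 (-0.55), Gnat1 (0.36) and Rom1 (-0.28) and the amacrine and horizontal list by Slc32a1 (-0.44), Onecut1 (0.18) and Gad2 (0.18). Their part in the matrix differences was not tested.

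Genes that modify, bind or cleave the matrix were counted in the same way, beside 1.13% lower and 0.33% higher over all tested genes. Of 28 collagen-modifying enzymes, which hydroxylate, fold, trim and cross-link collagen chains, 21 were tested, and Loxl1, a cross-linking lysyl oxidase, passed as lower (-0.64, SE 0.18). The list had a median of -0.038, and Crtap (0.79, SE 0.71) and Tll1 (-0.53, SE 0.53) did not pass. Of 28 proteoglycans 21 were tested, with a median of -0.070, and Gpc3, a glypican, passed as lower (-1.51, SE 0.42), while Fmod (-0.73, SE 0.25) and Bcan (0.66, SE 0.22) did not pass. Of 41 other matrix proteins 31 were tested, with a median of -0.069. Fbn1, fibrillin 1 of elastic microfibrils, passed as lower (-1.26, SE 0.34), as did Frem1, a protein of the epidermal basement membrane (-1.005, SE 0.24), while Sparcl1, a relative of Sparc, passed as higher (1.11, SE 0.30). Efemp1 had the largest difference of this list in size (-1.27, SE 0.61) and did not pass.

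Of 30 matrix proteases and their inhibitors 21 were tested, with a median of -0.098. Timp3, an inhibitor of metalloproteinases that stays bound to Bruch's membrane, had signals of 0.019, -1.45, -0.56 and -0.71 on the HZ-labelled arrays and of -1.90, -2.43, -2.02 and -3.19 on the KO-labelled ones. The labels did not overlap, and the difference was -1.71 (SE 0.37, limma adjusted p = 0.362). Adamts1 (-0.57, SE 0.66) and Adamts4 (-0.52, SE 0.32) did not pass. Of 25 matrix receptors 15 were tested, with a median of -0.10, and Itga7, the alpha chain of a laminin receptor, passed as lower (-1.26, SE 0.27). Itgav, the alpha chain of vitronectin receptors, was lower on every KO-labelled array with a difference of -0.47 (SE 0.084, limma adjusted p = 0.328), short of the fold of 1.5, and Itga11 (0.50, SE 0.39) did not pass. In each of these 5 lists most genes did not pass. With the replicate number as a block, Aif1, Bcan, C1qa, Cldn5, Cx3cr1, Foxd1 (higher) and Efemp1, Fmod, Kdr and Rlbp1 (lower) also passed, with limma adjusted p between 0.308 and 0.458.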

How the data were processed

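RNA of CD73-positive cells from 4 samples labelled Lpcat1 HZ and 4 labelled Lpcat1 KO was hybridised to single-color arrays, and samples were grouped by these labels. The authors deposited, per spot, the background-subtracted signal intensity that Agilent Feature Extraction 10.7.1.1 wrote, with the software's other marks (outlier spots, signal well above background). A log2 table, shifted by the 75th percentile in GeneSpring, was also deposited. Its values were centred on 0 for each probe, as set against the scanner values, and served as an alternative.

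The 75th percentile of the 59305 non-control spots of an array (882 to 1024 intensity units) was subtracted from log2 signal, without outlier spots, and a probe's repeated spots were averaged. Tests were run on probes where at least 4 arrays had signal well above background and each group had at least 3 values, which left 34303 of 56605 probes. Names came through RefSeq accessions of GRCm38.p6 (32994 probes named), and the promoter windows from a RefSeq table of that build. A gene is its tested probe with the highest mean. The labels were compared with limma 3.58.1 (lmFit, then eBayes, two-sided) under R 4.3.3 and version 1.17.8 of data.table, with Benjamini-Hochberg adjustment over all tested probes, so that every adjusted p in the text is limma's. Tables and plots used Python 3.11.15, pandas 2.3.3 and matplotlib 3.10.9.

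Some items are not reported here. The members, gene lists and tests were chosen with earlier results of these data known. Named are all members past the looser thresholds, the 5 lowest and 5 highest, other chains of their type, and in other lists the genes past the thresholds and the 3 with the largest difference. Arrays that share a replicate number, which is also a slide column, deviated together from their group means (r of 0.172 to 0.337, against -0.337 to 0.117 for other pairs), so that the numbers pair the arrays. In a simulation with the same 34303 probes, of which 200 differed by 1.5 (log2), the looser thresholds recovered 92% with 41% of calls false, and the stricter ones 78.4% with 4.8% false. Its noise was drawn independently for each probe and array, so that these rates need not hold for the real arrays. Alternatives were normexp background correction (offset 50), quantile normalization, another percentile, no filter or a stricter filter, the methods' t-test, eBayes with trend and robust settings, a block for the replicate number, the authors' values, the mean of a gene's probes, and each array left out.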

Additional observations from a re-analysis of the deposited data

Results flagged for a closer look

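An array far from the others of its label was found 5 times, where chance, which picks out about 1 in 20 groups of 4 values, would give about 5.35 over the groups examined. Col17a1 was 1.80 on KO replicate 2 and between 1.57 and 1.58 on the other KO-labelled arrays. Col26a1 was -0.61 on HZ replicate 3 against -0.33 to -0.31 on the others, so that the lowest HZ-labelled array is the one nearest to the KO-labelled arrays. Col9a3 was -1.36 on HZ replicate 1 against -2.02 to -1.95, and without that array its difference was -0.89. Lama5 was -2.30 on HZ replicate 4 against -1.71 to -1.64, and without that array its difference was 0.10. The mean deviation of the 6 matrix glycoproteins was 0.30 on KO replicate 2 against -0.17 to -0.097. What sets these arrays apart was not tested.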

How the results depend on the processing

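The count of 6 lower genes was kept with quantile normalization, with the percentile taken over probes that every array had well above background, with the stricter filter, with the methods' t-test and with the authors' processed values, each with the same 6 genes. It was 8 with normexp background correction, which also called 1 gene higher, and 7 with trend and robust eBayes. With the replicate block, which gives the paired comparison, it was 10 lower and 1 higher. Over all tested genes normexp, trend and robust eBayes and the block called 159, 216 and 438 lower and 57, 77 and 142 higher. The main fit called 168 lower and 49 higher. The mean of a gene's probes gave 3, and Col8a2, Lamb1 and Col26a1 were lost, although Col8a2 has a single tested probe and keeps its difference there. Without a filter on dim probes it was 0 of 67 genes, and the median became -0.28. Leaving out each array in turn gave a count between 0 and 8 lower and between 0 and 2 higher, and a median between -0.32 and -0.10. At the stricter thresholds 0 genes were called under every alternative run. Of 44 genes, 23 kept their sign under every alternative, and 58 of 779 pairs of a gene and an alternative changed it. The t-test, the eBayes settings and the filters change no member's difference, so they could not change a sign. The block could not either where a gene has a value on every array. Nor could the mean of a gene's probes where a single probe was tested. The counts of kept signs include these runs.

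The sign changed with normexp background correction for Col4a5 (0.15), Col4a2 (-0.010), Col17a1 (-0.014), Lama5 (-0.034) and Lpcat1 (0.0049). It changed with quantile normalization for Col14a1 (0.024), Col6a1 (0.12), Col6a5 (0.045), Col13a1 (0.091) and Col4a5 (0.031), and with the percentile over probes that every array had well above background for Col4a2 (-0.019). The mean of a gene's probes changed it for Col22a1 (0.054), Col11a2 (-0.15) and Col16a1 (-0.16). The authors' processed values changed it for Col4a5 (0.010), Col5a3 (0.015), Lama4 (-0.998) and Foxd1 (-0.027), and the replicate block for Lama4 (-0.097). With each array left out in turn, differences ran for Col9a1 from -0.69 to 0.086, Lama1 from -0.55 to 0.023, Col23a1 from -0.47 to 0.18, Col14a1 from -0.43 to 0.19, Lamb2 from -0.26 to 0.026, Col22a1 from -0.38 to 0.33 and Postn from -0.42 to 0.39. They ran for Col6a1 from -0.41 to 0.32, Col6a5 from -0.32 to 0.22, Vtn from -0.18 to 0.044, Col2a1 from -0.18 to 0.21, Col13a1 from -0.21 to 0.29, Col4a5 from -0.16 to 0.11, Col5a3 from -0.050 to 0.063, Col4a2 from -0.13 to 0.13, Col5a2 from -0.42 to 0.62 and Lama4 from -0.097 to 1.02. Among other named genes they ran for Adamts1 from -0.88 to 0.0024, Crygd from -0.40 to 0.23, Gad2 from -0.080 to 0.39, Lpcat1 from -0.10 to 0.022, Myh11 from -0.77 to 0.16, Onecut1 from -0.0038 to 0.32, Slc32a1 from -0.77 to 0.077 and Tll1 from -0.81 to 0.038. The causes were not tested.

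Signal over background limits the dim genes. Of the 44 genes, 10 were not well above background on all arrays, and 4 arrays of each label limit the precision, with standard errors of the differences between 0.093 and 0.81. At the looser thresholds 92% of probes changed by 1.5 on the log2 scale were recovered in simulated data. The simulated noise was independent between probes and arrays, so the recovery on the real arrays is not known.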
